A study of Mus musculus with 9 samples.

Results

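The genes described here are 46 photoreceptor genes that CRX is known to control, or to act beside, in the retina. They form a list of gene symbols that uses no value of these libraries in its rule, although it was drawn up with earlier results of these data known, and they make up 46 of the 22068 genes in the count table. They encode 7 transcription factors, 2 cone opsins, 5 transducin subunits, 7 phosphodiesterase subunits and chaperones, 6 channels and exchangers, 9 proteins of shut-off and calcium feedback, 5 outer segment proteins and 5 proteins of the retinoid cycle and matrix. The question was what happens to these genes in cells that are not photoreceptors when a CRX protein is supplied. RNA-seq was carried out on mouse embryonic fibroblasts (MEFs), primary connective tissue cells of the strain C57Bl/6 at passage 2. In every group the cells were electroporated with a plasmid that carried puromycin resistance, kept in puromycin for 5 days and left to recover before polyA RNA was taken. The sample labels place 48 hours of recovery after puromycin, and the study's methods place 48 hours before it and culture overnight after it. The eutherian CRX group (3 libraries) received V5-tagged human *CRX*, the metatherian CRX group (3 libraries) received V5-tagged opossum *CRX*, and the control group (3 libraries) received the plasmid with the resistance gene and no homeobox gene. RNA was harvested in triplicate per condition, and nothing says that the triplicates came from separate cultures, so p-values measure the spread between these libraries, which may be technical. The level of the transfected protein in each library is not part of these counts, and the cells keep their own *Crx* gene.

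CRX is a homeodomain transcription factor of photoreceptors and of the pineal gland. In the retina it binds short DNA motifs with the core TAATCC near the start sites of rod and cone genes, and acts there together with OTX2, NRL, NR2E3 and other factors. Light activates an opsin, the opsin activates the G protein transducin, transducin releases the catalytic subunits of phosphodiesterase 6 from inhibition, cyclic GMP falls and the cyclic nucleotide-gated channels of the outer segment close. Arrestins, kinases, calcium sensors and guanylate cyclases then return the cell to its dark state. Fibroblasts are not known to carry out any of these steps.

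To show what a CRX motif in these genes looks like, the motif TAATCC was searched on both strands of the RefSeq promoters of GRCm38.p6, each of which covers 250 bases before a gene's start and 50 bases after it. Promoters were matched for 34 members by symbol. The motif lay in at least 1 promoter of 15 of these 34 members (44.1%), beside 8.14% of the 27025 genes with a promoter in the table. The list was made of genes that CRX is known to control or to act beside, so that a higher share is no independent finding. Matches at 2 positions of 1 promoter were found in *Crx*, *Cngb1*, *Gucy2f* and *Aipl1*, beside 0.429% of all genes. These 4 promoters are printed 5′ to 3′ together with that of *Unc119*, the member with the most counts per length, and capitals mark the motif or its reverse complement, GGATTA. The promoter of *Crx* is chr7:15879906-15880205 on the minus strand, with matches that begin at bases -94 and -21 from the start site. That of *Cngb1*, which encodes a channel subunit of rods, is chr8:95306536-95306835 on the minus strand, with matches at -58 and -25. The promoter of *Gucy2f*, a guanylate cyclase gene, is chrX:142196887-142197186 on the minus strand, with matches at -84 and -59. That of *Aipl1*, a chaperone of phosphodiesterase, is chr11:72037460-72037759 on the minus strand, with matches at -53 and 11. The promoter of *Unc119* is chr11:78345334-78345633 on the plus strand, with a match at -118. The RefSeq starts of *Gucy2f*, *Aipl1* and *Unc119* lie inside these genes as the count table annotates them.
Crx: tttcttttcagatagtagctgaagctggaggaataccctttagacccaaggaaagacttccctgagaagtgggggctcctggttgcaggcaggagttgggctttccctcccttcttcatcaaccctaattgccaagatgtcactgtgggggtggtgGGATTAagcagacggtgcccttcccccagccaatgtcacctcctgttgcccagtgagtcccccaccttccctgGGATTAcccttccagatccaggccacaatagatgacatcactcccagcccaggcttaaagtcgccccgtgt
Cngb1: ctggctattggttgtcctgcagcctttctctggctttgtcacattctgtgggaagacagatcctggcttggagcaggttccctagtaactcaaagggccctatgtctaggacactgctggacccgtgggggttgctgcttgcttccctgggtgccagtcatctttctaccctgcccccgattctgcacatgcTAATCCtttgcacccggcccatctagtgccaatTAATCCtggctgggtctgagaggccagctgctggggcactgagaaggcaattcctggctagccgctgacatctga
Gucy2f: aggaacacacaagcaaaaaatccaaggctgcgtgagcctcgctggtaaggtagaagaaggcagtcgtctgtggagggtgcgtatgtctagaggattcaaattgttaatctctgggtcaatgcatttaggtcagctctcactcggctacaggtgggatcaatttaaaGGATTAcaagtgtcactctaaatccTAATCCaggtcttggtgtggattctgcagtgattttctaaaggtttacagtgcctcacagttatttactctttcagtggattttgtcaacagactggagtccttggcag
Aipl1: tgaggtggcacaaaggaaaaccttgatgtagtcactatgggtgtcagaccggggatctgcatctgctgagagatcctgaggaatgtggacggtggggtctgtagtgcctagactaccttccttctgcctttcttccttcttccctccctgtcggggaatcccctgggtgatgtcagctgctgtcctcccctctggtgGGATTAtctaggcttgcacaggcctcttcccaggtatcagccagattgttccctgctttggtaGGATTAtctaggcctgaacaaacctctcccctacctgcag
Unc119: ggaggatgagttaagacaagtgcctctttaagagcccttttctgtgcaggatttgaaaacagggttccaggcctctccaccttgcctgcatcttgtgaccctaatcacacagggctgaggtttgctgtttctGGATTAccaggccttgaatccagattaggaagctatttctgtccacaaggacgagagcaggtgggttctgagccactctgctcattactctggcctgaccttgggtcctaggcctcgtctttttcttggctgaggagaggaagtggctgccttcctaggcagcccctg

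The libraries held 54145701 to 94699657 counts on genes, with TMM factors of 0.949 to 1.11. Even counts outnumbered odd ones among genes with 1 to 10 counts, at 61.2 to 66.4% per library, a pattern that counting both reads of a fragment would give, and counting intervals would then be too narrow. The label of the cells was checked against 10 fibroblast markers, and all 10 were kept for testing, with *Vim* at a mean of 2773 FPKM and *Fn1* at 2118 FPKM. By edgeR 0 of the 10 were called. At an unadjusted p under 0.05, 3 were lower with eutherian CRX, and 5 lower and 1 higher with metatherian CRX (beside 9.65% and 20.4% of all genes, in either direction), while 3 were higher and 1 lower with metatherian than with eutherian CRX (beside 11.7%). DESeq2 called 3 (*Col1a1*, *Col1a2* and *Thy1*, lower) and 4 of these markers (the same 3, lower, and *Pdgfra*, higher; beside 3.46% and 9.56%). The collagen genes were lowest in replicate 3 of both CRX groups. *Col1a1* had 82710 counts there with eutherian and 68258 with metatherian CRX, against 356322 to 520060 in replicates 1 and 2 of these groups. *Col3a1*, a fibrillar collagen gene chosen after its values were seen, had 22270 counts in eutherian CRX replicate 3 against 409896 and 413881 in replicates 1 and 2. In control *Col3a1* was also lowest in replicate 3, at 257547 counts against 482296 and 620723. *Col1a1* and *Col1a2* had their fewest control counts in replicate 1, the smallest library.

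The photoreceptor genes had few counts in these libraries. A library without a read on a gene may still hold up to 3 counts of it, a limit of 0.0325 to 0.0579 CPM (the usual unit of a count divided by the total of its library, here scaled with TMM) that covers counting error only. The limit would be higher if both reads of a fragment were counted. Control had at least 1 count of 40 members, eutherian CRX of 39 and metatherian CRX of 39. By library, 28 to 36 members had a count (60.9 to 78.3%), beside 73.0 to 75.6% of all genes. Only *Nrl*, which directs rod identity, had no count in any library, 23 to 29 members had more than 3 counts in a given library, and 9 members never exceeded 3 counts in a library. The filter of edgeR on low counts kept 21 members (45.7%), beside 14599 genes (66.2%) of the whole table. Those 21 members had a median of 0.169 FPKM (computed here as CPM divided by the exon length in kilobases), against 5.63 FPKM for all genes kept. A mean above 2 FPKM over the 9 libraries was reached by *Unc119*, at 10.1 FPKM, and *Rom1*, at 3.59 FPKM. Without *Crx*, all members together came to between 30.5 and 36.3 CPM in each library, with 33.1 to 35.1 CPM in control, 34.5 to 36.3 CPM with eutherian CRX and 30.5 to 35.8 CPM with metatherian CRX, so that the 3 groups overlapped.

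**Figure D1:**
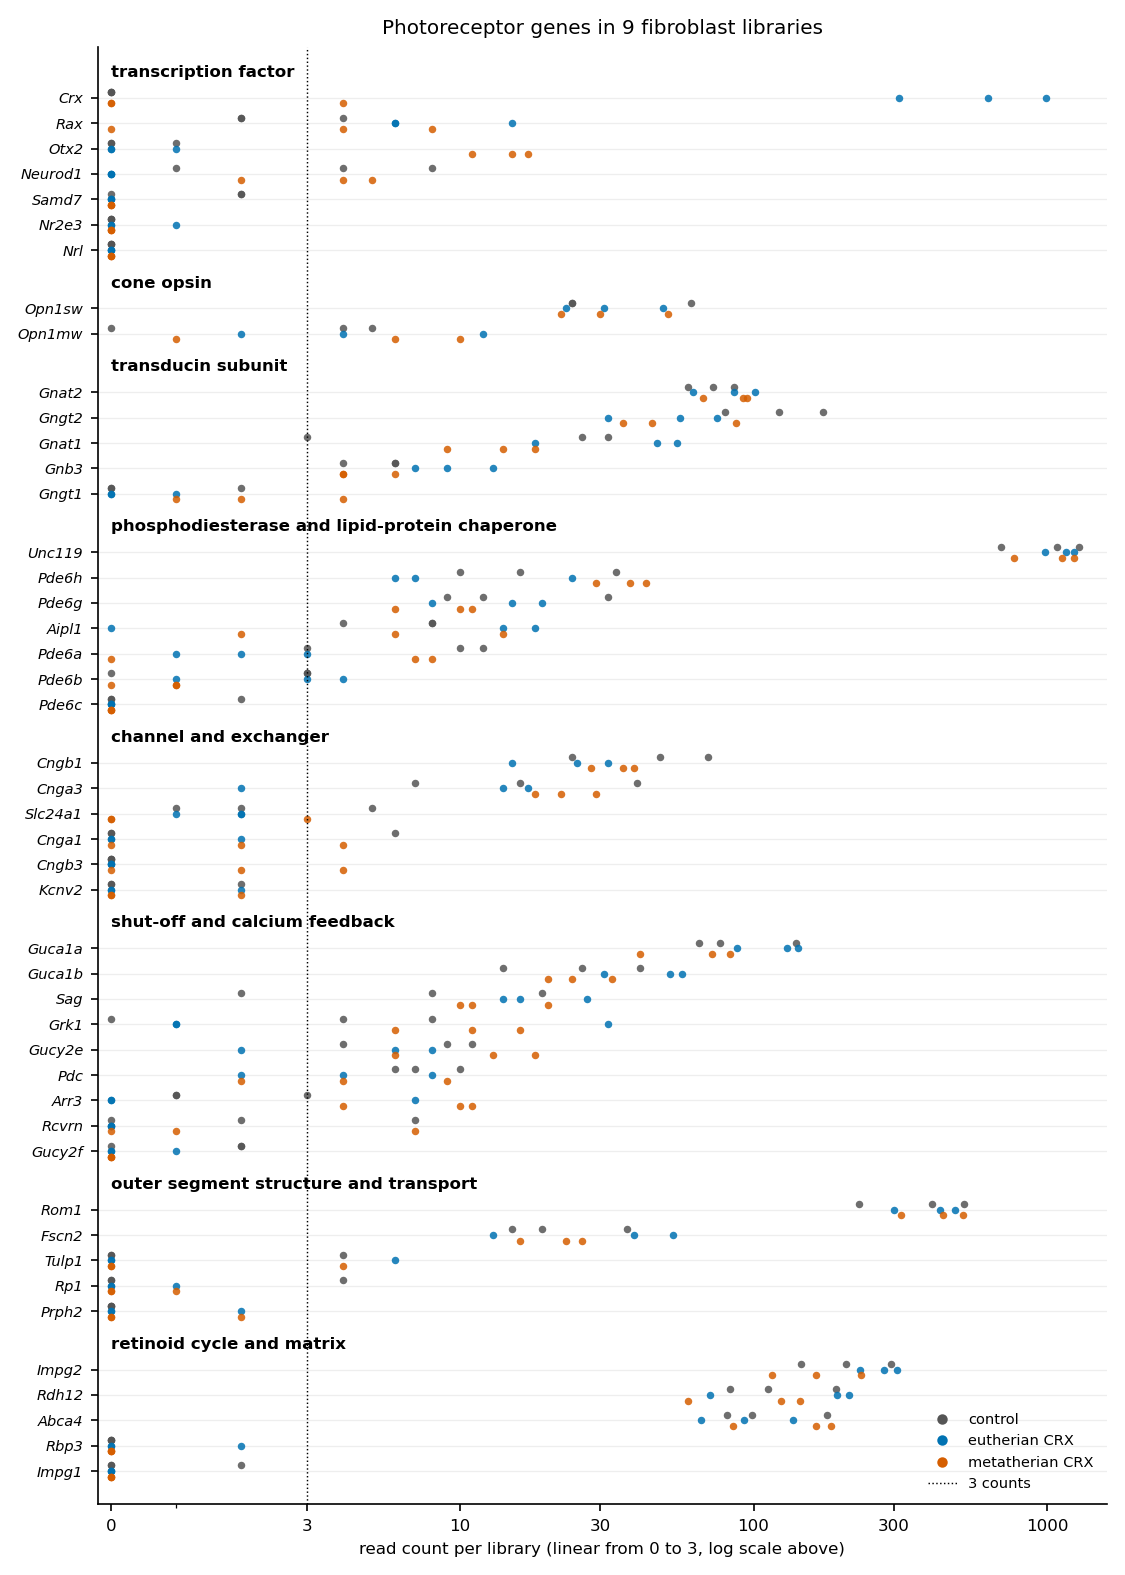
Read counts of the 46 photoreceptor genes by role, with the count per library on the horizontal axis (linear from 0 to 3, log scale above) and 1 point per library, coloured by condition. The dotted line stands at 3 counts. *Crx* with eutherian CRX (313 to 995 counts) and *Otx2* with metatherian CRX (11 to 17 counts) lie apart from the other conditions, and points of the conditions mix for most other genes.

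*Crx* itself, on chromosome 7 of GRCm38 from 15865947 to 15879955, was counted almost only in cells that had received the human gene. The eutherian CRX libraries held 627, 995 and 313 counts, the control libraries 0, 0 and 0, and the metatherian CRX libraries 4, 0 and 0. Every eutherian CRX library lay far above the other 6, and the level was at least 154-fold higher than in control, taken against 3 counts in the smallest control library (adjusted p = 0.025 from edgeR's quasi-likelihood test). If both reads of a fragment were counted, a zero would allow more counts and this bound would be lower. *Crx* passed the filter on low counts only through the eutherian CRX libraries, so that it had to differ, and its p is given as a description. The human and mouse genes are not told apart by these counts. Leaving out 1 library at a time kept the bound between 104-fold and 212-fold, whereas the adjusted p from edgeR rose above 0.05 in 7 of the 9 fits, to between 0.058 and 0.25, and stayed below it only without metatherian CRX replicate 2 or 3. Without the replicate block it was 0.095, and in a fit of only the 6 libraries compared 0.057. Between the orthologues the summed level of *Crx* was 478 times as high with eutherian CRX (95% counting interval 186 to 1754), a ratio that rests on metatherian CRX replicate 1, which held all 4 counts of that group, with an adjusted p of 0.23 from edgeR, or 0.019 when eutherian CRX replicate 3 and 0.032 when metatherian CRX replicate 3 was left out. *Crx* counts give no level of the opossum gene.

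*Otx2*, the homeobox gene that acts upstream of *Crx* in photoreceptor precursors, showed the opposite pattern at a far lower level. Located on chromosome 14 from 48657452 to 48667644, it had 1, 0 and 0 counts in control, 0, 0 and 1 with eutherian CRX, and 11, 15 and 17 with metatherian CRX. All 3 metatherian CRX libraries were above all 6 others. Summed and scaled, the metatherian CRX level was 42.2 times that of control (95% counting interval 7.18 to 1704) and 43.6 times that of eutherian CRX (7.41 to 1760). Each ratio rests on 1 count, in control replicate 1 or in eutherian CRX replicate 3. Even the highest level of *Otx2* was 0.0819 FPKM. The filter left *Otx2* out. In a fit of every gene with a count its adjusted p from edgeR was 0.11 against control and 0.29 against eutherian CRX. Of the 9 fits without 1 library, 7 kept *Otx2*, and in the fit without eutherian CRX replicate 3 it passed against control (adjusted p = 0.047 from edgeR, with 8.84% of genes called), whereas in the other 6 the adjusted p lay between 0.092 and 0.37. In these fits *Otx2* was kept only through its metatherian CRX libraries, and over every gene with a count the adjusted p from edgeR without eutherian CRX replicate 3 was 0.075.

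*Crx* and *Otx2* belong to the same homeobox family. The sequence of the opossum gene was not used here, and whether its reads were counted on *Otx2* was not tested. *Otx1*, the third member of the family, had 0, 6 and 0 counts in control, 11, 13 and 4 with eutherian CRX and 2, 0 and 0 with metatherian CRX. Eutherian CRX overlapped control and lay above metatherian CRX in this gene.

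**Figure D2:**
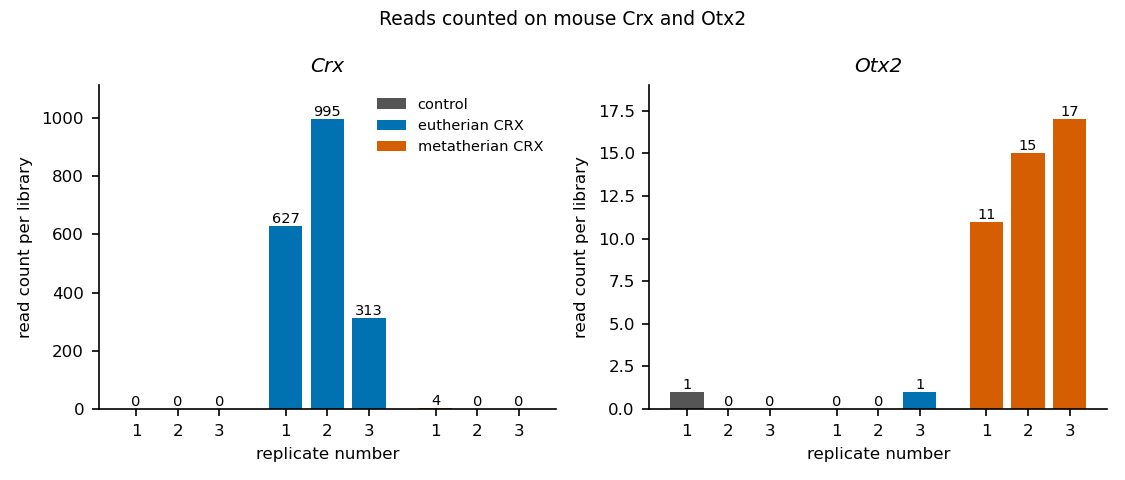
Read counts of *Crx* (left) and *Otx2* (right) in each library, with the replicate number on the horizontal axis and 1 bar per library. *Crx* was counted at 313 to 995 reads with eutherian CRX and at most 4 elsewhere, and *Otx2* at 11 to 17 reads with metatherian CRX and at most 1 elsewhere.

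The remaining transcription factors of photoreceptors were barely detected. *Neurod1*, a neurogenic factor that also maintains photoreceptors, had 1, 8 and 4 counts in control, 0, 0 and 0 with eutherian CRX and 2, 4 and 5 with metatherian CRX. Its 3 eutherian CRX libraries were the only ones without a count, and in the fit of every gene with a count the adjusted p from edgeR was 0.48 against control and 0.42 between the orthologues. *Rax*, a factor of the early eye field, had between 0 and 15 counts per library. *Samd7*, a repressor in rods, had 4 counts in all, and *Nr2e3*, the rod factor that silences cone genes, had 1.

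Across the 21 members tested, the only call at an adjusted p under 0.05 was that of *Crx* with eutherian CRX against control, a gene tested only because it is high in that group, beside 0.623% of the 14599 genes called in that comparison (3 higher and 88 lower). Over all genes this number was 0 in 7 of the 9 fits without 1 library and in the fit of only the 6 libraries compared, and with metatherian CRX replicate 2 or 3 left out it was 40 or 186. Metatherian CRX against control gave 0 members called by edgeR, beside 0.0137% of genes (2), and metatherian against eutherian CRX gave 0 members, beside 0%. Without eutherian CRX replicate 3 these numbers of genes were 1305 and 527, without metatherian CRX replicate 3 they were 1047 and 296, in each of the other 7 fits they were 0 and 0, and with only the 6 libraries compared 548 and 0. At an unadjusted p under 0.05 there were 3 members with eutherian CRX (beside 9.65% of genes), 2 with metatherian CRX (beside 20.4%) and 4 between the orthologues (beside 11.7%). DESeq2 called 2 members with eutherian CRX (*Crx* and *Gngt2*, beside 3.46% of genes), 1 with metatherian CRX (*Gngt2*, beside 9.56%) and 2 between the orthologues (*Crx* and *Guca1a*, beside 2.62%). The libraries of the groups did not overlap in 3 members with eutherian CRX (beside 14.4% of genes), in 1 with metatherian CRX (beside 23.8%) and in 5 between the orthologues (beside 11.5%). Leaving out *Crx*, the log2 fold changes of the other 20 members had a median of 0.11 with eutherian CRX, with 12 above 0 and 8 below, against a median of 0.0058 over all genes tested. With metatherian CRX the median was -0.043, with 9 above 0 and 11 below, against -0.0094 over all genes. Between the orthologues it was -0.030, with 10 above 0 and 10 below, against -0.0037 over all genes. Both comparisons with control use the same 3 control libraries.

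**Figure D3:**
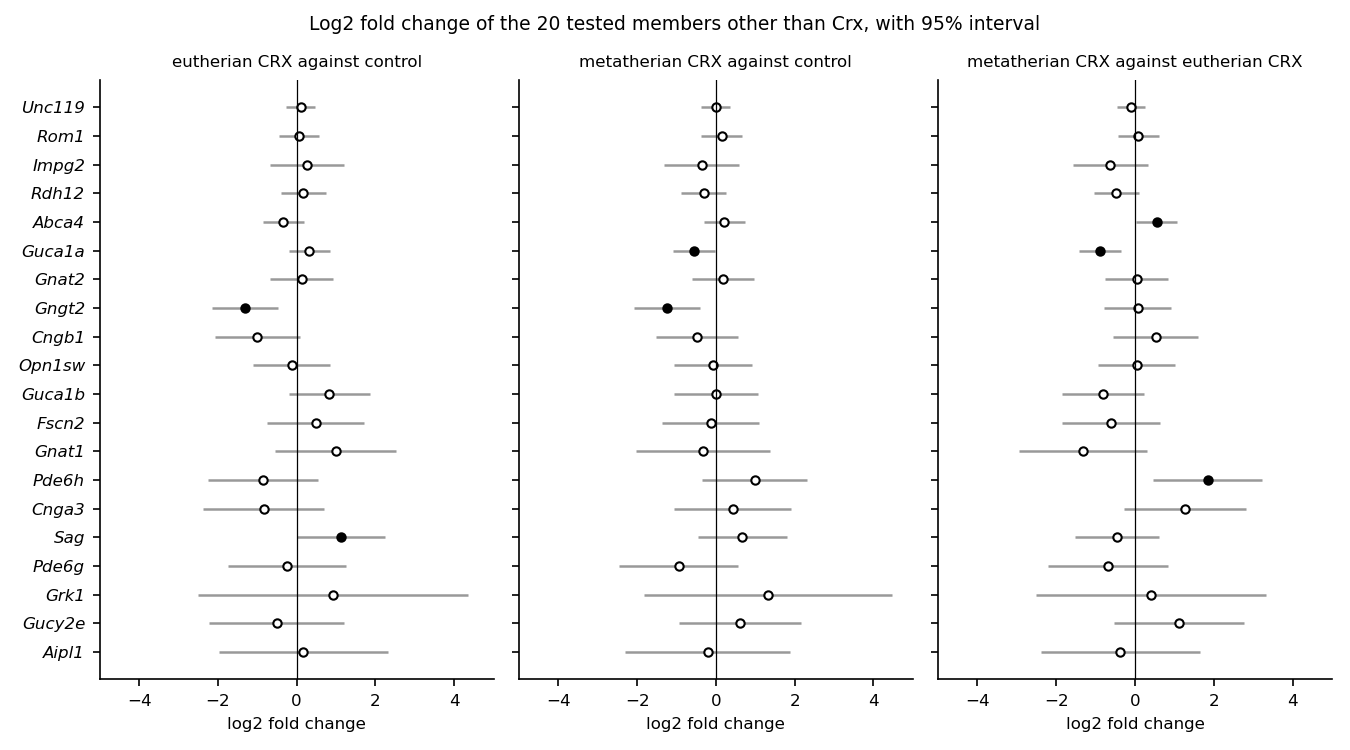
Log2 fold change of the 20 tested members other than *Crx* in the 3 comparisons, ordered by mean count. Points are edgeR estimates, lines are 95% intervals, and filled points have an unadjusted p under 0.05. The intervals of *Unc119* and *Rom1* are short and include 0 throughout, and those of *Grk1* and *Aipl1*, with few counts, span more than 3 log2 units.

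The cone opsins, the visual pigments of cones, stayed low in every group. *Opn1sw*, the short-wavelength pigment gene, had 24, 61 and 24 counts in control, 49, 31 and 23 with eutherian CRX and 51, 22 and 30 with metatherian CRX. The groups overlapped, with log2 fold changes of -0.13 (95% interval -1.11 to 0.85) and -0.081 (-1.07 to 0.91) against control. Its annotated exons share 5 bases with those of *Calu*, on the opposite strand, a gene at a mean of 2338 CPM, and the part of reads from *Calu* in these counts was not tested. *Opn1mw*, the middle-wavelength pigment gene, had between 0 and 12 counts per library.

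Among the transducin subunits, *Gngt2*, the gamma subunit of cones, stood out. It lies on chromosome 11 from 95842219 to 95845734 and had 80, 172 and 122 counts in control, 32, 56 and 75 with eutherian CRX and 36, 45 and 87 with metatherian CRX. In CPM, control lay at 1.70 ± 0.159 (SD, n = 3), eutherian CRX at 0.741 ± 0.304 (SD, n = 3) and metatherian CRX at 0.795 ± 0.472 (SD, n = 3), and all 6 libraries with a CRX plasmid were below all 3 control libraries. Its level changed on the log2 scale by -1.31 (standard error 0.36, adjusted p = 0.24 from edgeR) with eutherian CRX and -1.24 (standard error 0.36, adjusted p = 0.13 from edgeR) with metatherian CRX. DESeq2 gave adjusted p-values of 0.040 and 0.029. The orthologues differed by 0.064 on the log2 scale (95% interval -0.78 to 0.91).

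The cultures also held transcripts of macrophages, at levels that overlapped between control and eutherian CRX and were below control in all 3 metatherian CRX libraries. Of 14 macrophage markers, 13 were in the count table, all with counts, and 11 were tested. Their summed level was 13.8 to 50.9 CPM in control, 6.78 to 28.0 CPM with eutherian CRX and 6.16 to 12.6 CPM with metatherian CRX. By edgeR 0 of the 11 were called in either comparison with control, and 1 and 8 had an unadjusted p under 0.05, all lower (beside 9.65% and 20.4% of all genes, in either direction). The median log2 fold change of the 11 was -0.90 with eutherian and -1.91 with metatherian CRX, and -1.39 between the orthologues, where 1 was lower at an unadjusted p under 0.05 (beside 11.7%). DESeq2 called 0 with eutherian and 4 with metatherian CRX (*C1qa*, *C1qc*, *Fcer1g* and *Tyrobp*, beside 3.46% and 9.56%). *C1qa* and *C1qc*, complement genes of macrophages, had no count in metatherian CRX replicate 1. By replicate number, the markers summed to 50.9, 25.3 and 13.8 CPM in control, 28.0, 23.0 and 6.78 CPM with eutherian CRX and 6.16, 9.01 and 12.6 CPM with metatherian CRX. *Gngt2* itself was at 1.54, 1.86 and 1.71 CPM in control, 0.402, 0.832 and 0.989 CPM with eutherian CRX and 0.456, 0.594 and 1.33 CPM with metatherian CRX. The part of these cells in the *Gngt2* counts was not tested, and in bulk cultures fewer cells of a type and less RNA per cell cannot be told apart. The exons of *Gngt2* share 196 bases with *Abi3* on the opposite strand, which had 21 to 152 counts per library, and the strand option of the counting is not given in the sources used here.

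**Figure D4:**
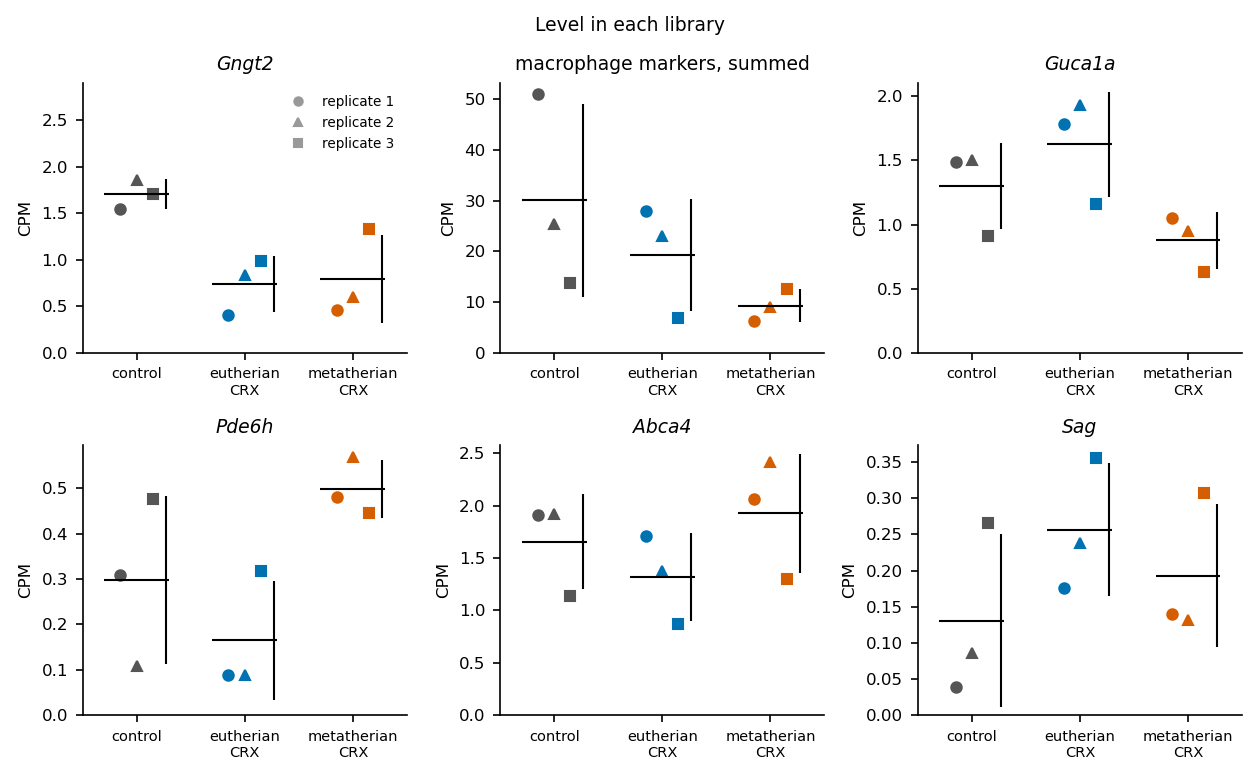
Level in CPM of *Gngt2*, of 13 macrophage markers summed, and of *Guca1a*, *Pde6h*, *Abca4* and *Sag* in each library, by condition. Symbols mark replicate numbers, horizontal lines the mean and vertical lines 1 SD. *Gngt2* lies between 1.54 and 1.86 CPM in control and between 0.402 and 1.33 CPM in the 6 other libraries.

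*Gnat2*, the alpha subunit of cone transducin, was steadier. It had 60, 86 and 73 counts in control, 86, 101 and 62 with eutherian CRX and 92, 67 and 95 with metatherian CRX, and the log2 fold changes against control were 0.13 (95% interval -0.67 to 0.93) and 0.18 (-0.62 to 0.97). *Gnat1*, the alpha subunit of rods, had 26, 32 and 3 counts in control, 55, 47 and 18 with eutherian CRX and 9, 18 and 14 with metatherian CRX. Replicate 3 was the lowest of control and of eutherian CRX, and the log2 difference between the orthologues was -1.31 (95% interval -2.94 to 0.31, adjusted p = 0.51 from edgeR). The neighbour *Sema3f*, 1906 bases away at a mean of 115 CPM, was also lowest in replicate 3 of each group, with 5683, 4334 and 2016 counts. *Gnb3*, the beta subunit of cones, had 4 to 13 counts per library and *Gngt1*, the gamma subunit of rods, 0 to 4.

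Of the phosphodiesterase genes, those for the inhibitory subunits were tested and those for the catalytic subunits were too low. *Pde6h*, the inhibitory subunit of cones, lies on chromosome 6 from 136952221 to 136963485, with no annotated gene within 2000 bases. It had 16, 10 and 34 counts in control, 7, 6 and 24 with eutherian CRX and 38, 43 and 29 with metatherian CRX. Each metatherian CRX library was above each eutherian CRX library, while control overlapped both. The log2 difference between the orthologues was 1.84 (standard error 0.60, adjusted p = 0.32 from edgeR), from a mean of 0.165 ± 0.132 CPM (SD, n = 3) with eutherian CRX to 0.498 ± 0.0634 CPM (SD, n = 3) with metatherian CRX. Against control it was -0.85 with eutherian CRX and 0.99 with metatherian CRX, and both 95% intervals included 0. *Pde6g*, the inhibitory subunit of rods, had 9, 12 and 32 counts in control, 15, 19 and 8 with eutherian CRX and 6, 10 and 11 with metatherian CRX, and all groups overlapped. *Pde6a*, *Pde6b* and *Pde6c*, the catalytic subunits of rods and cones, had at most 12, 4 and 2 counts in a library. *Pde6a* was at 3, 10 and 12 counts in control, 2, 1 and 3 with eutherian CRX and 0, 8 and 7 with metatherian CRX.

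Of the partners that carry or fold these proteins, *Unc119* had the most counts of all members and *Aipl1* had few. *Unc119*, which binds the lipid tail of the transducin alpha subunit and is used by other tissues too, lies on chromosome 11 from 78343443 to 78349164. It had 695, 1284 and 1081 counts in control, 1163, 981 and 1235 with eutherian CRX and 1121, 1231 and 774 with metatherian CRX, or 14.1 ± 0.900 CPM, 15.2 ± 0.983 CPM and 14.1 ± 2.20 CPM (SD, n = 3 each). The 3 groups overlapped, and the log2 fold changes were 0.10 (95% interval -0.26 to 0.46) and -0.0057 (-0.37 to 0.36). *Aipl1*, the chaperone of phosphodiesterase whose promoter holds 2 motifs, had 4, 8 and 8 counts in control, 14, 0 and 18 with eutherian CRX and 14, 2 and 6 with metatherian CRX. That spread within groups was as wide as any difference between them.

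The channel subunits had few counts, and 2 were tested. *Cngb1*, on chromosome 8 from 95239043 to 95306585, had 24, 48 and 70 counts in control, 32, 25 and 15 with eutherian CRX and 36, 39 and 28 with metatherian CRX. After scaling, all 3 eutherian CRX libraries (0.198 to 0.402 CPM) were below control (0.463 to 0.981 CPM) and below metatherian CRX (0.429 to 0.515 CPM). The log2 fold change against control was -0.999 (95% interval -2.08 to 0.087, adjusted p = 0.56 from edgeR). *Cnga3*, the channel subunit of cones, had 7, 40 and 16 counts in control, 2, 17 and 14 with eutherian CRX and 29, 22 and 18 with metatherian CRX. Its metatherian CRX libraries (0.276 to 0.367 CPM) lay above its eutherian CRX libraries (0.025 to 0.253 CPM), with a log2 difference of 1.27 (95% interval -0.28 to 2.82, adjusted p = 0.51 from edgeR). *Cnga1*, *Cngb3*, *Kcnv2* and *Slc24a1*, the last an exchanger of rods that removes calcium, had at most 6, 4, 2 and 5 counts in a library. *Cngb3*, the partner of *Cnga3* in cones, was counted only with metatherian CRX, at 2, 0 and 4 counts, of which only the 4 exceeded the 3 counts that a zero allows.

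Among the genes of shut-off and calcium feedback, *Guca1a* had the smallest unadjusted p between the orthologues, although the estimated difference of *Gucy2e*, with few counts, was larger. *Guca1a* encodes a calcium sensor that activates guanylate cyclase and lies on chromosome 17 from 47394558 to 47413514. Counts were 77, 139 and 65 in control, 142, 130 and 88 with eutherian CRX and 83, 72 and 41 with metatherian CRX. Scaled, each eutherian CRX library (1.16 to 1.93 CPM) was above each metatherian CRX library (0.629 to 1.05 CPM), and control (0.911 to 1.504 CPM) overlapped both. Against the control of the same number, eutherian CRX was higher in 3 of 3 pairs and metatherian CRX in 0 of 3. The log2 difference between the orthologues was -0.89 (standard error 0.23, adjusted p = 0.28 from edgeR and 0.049 from DESeq2). It was 0.32 (adjusted p = 0.73 from edgeR) for eutherian and -0.56 (adjusted p = 0.22 from edgeR) for metatherian CRX against control. *Guca1a* shares 62 exon bases on the same strand with *1700001C19Rik*, which had 2 to 17 counts per library. *Guca1b*, the second sensor, lies 1590 bases away on the opposite strand. It had 14, 41 and 26 counts in control, 52, 57 and 31 with eutherian CRX and 24, 20 and 33 with metatherian CRX. On the log2 scale it differed from control by 0.82 with eutherian CRX (95% interval -0.20 to 1.85) and 0.0034 with metatherian CRX (-1.06 to 1.07), and the groups overlapped.

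*Sag*, the arrestin of rods that ends signalling by the activated pigment, had 2, 8 and 19 counts in control, 14, 16 and 27 with eutherian CRX and 11, 10 and 20 with metatherian CRX. Replicate 3 was the highest of each group, and both CRX groups were above the control of the same number in 3 of 3 pairs. The log2 fold change was 1.13 with eutherian CRX (95% interval 0.016 to 2.24, adjusted p = 0.51 from edgeR) and 0.67 with metatherian CRX (-0.46 to 1.80, adjusted p = 0.47 from edgeR). With eutherian CRX the unadjusted p from edgeR was 0.047, and 0.20 without the replicate block. DESeq2 gave an unadjusted p of 0.10. *Grk1*, the kinase that phosphorylates the activated pigment, had 4, 8 and 0 counts in control, 1, 1 and 32 with eutherian CRX and 6, 16 and 11 with metatherian CRX. Only eutherian CRX replicate 3 reached 32 counts. *Gucy2e*, a guanylate cyclase, had 4, 9 and 11 counts in control, 8, 6 and 2 with eutherian CRX and 6, 13 and 18 with metatherian CRX, and the groups overlapped. *Arr3*, the arrestin of cones, had 1, 1 and 3 counts in control, 7, 0 and 0 with eutherian CRX and 10, 11 and 4 with metatherian CRX, and was not kept for testing. *Rcvrn*, the calcium sensor recoverin, and *Pdc*, the transducin-binding phosducin, had at most 7 and 10 counts in a library. *Gucy2f*, whose promoter holds 2 motifs, had 2, 2 and 0 counts in control, 1, 0 and 0 with eutherian CRX and none with metatherian CRX.

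In the outer segment group, *Rom1*, a tetraspanin of the disc rims, was detected well and its partner *Prph2* was not. *Rom1*, on chromosome 19 from 8927382 to 8929356, had 229, 521 and 404 counts in control, 430, 302 and 486 with eutherian CRX and 442, 518 and 317 with metatherian CRX. The means were 5.24 ± 0.711 CPM, 5.43 ± 0.963 CPM and 5.77 ± 1.00 CPM (SD, n = 3 each), the groups overlapped, and the log2 fold changes were 0.059 (95% interval -0.45 to 0.57) and 0.14 (-0.37 to 0.66). Genes on the opposite strand begin or end 145 bases (*B3gat3*) and 337 bases (*Eml3*) from it. *Prph2* had 2 counts in each of 2 libraries and none in the other 7. *Fscn2*, an actin-bundling protein of photoreceptors, had 15, 37 and 19 counts in control, 39, 13 and 53 with eutherian CRX and 23, 26 and 16 with metatherian CRX, with both the lowest and the highest library in eutherian CRX. *Rp1*, of the axoneme, and *Tulp1*, of transport to the outer segment, had at most 4 and 6 counts in a library. The exons of *Tulp1* are listed on chromosome 17 and again on another scaffold, so that its level per length is understated.

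The retinoid cycle and matrix genes held 3 of the 6 members with the most counts. *Abca4*, the transporter that clears retinal from disc membranes, lies on chromosome 3 from 122043893 to 122180070. It had 99, 178 and 81 counts in control, 136, 93 and 66 with eutherian CRX and 163, 183 and 85 with metatherian CRX. Replicate 3 was the lowest of each group, and after scaling metatherian CRX was above and eutherian CRX below the control of the same number in 3 of 3 pairs. The log2 difference between the orthologues was 0.55 (95% interval 0.035 to 1.07, adjusted p = 0.40 from edgeR). Its unadjusted p from edgeR was 0.039, and 0.17 without the replicate block. Against control the log2 fold change was -0.33 (-0.85 to 0.18) with eutherian and 0.22 (-0.30 to 0.73) with metatherian CRX. *Rdh12*, a retinal reductase, had 112, 191 and 83 counts in control, 211, 193 and 71 with eutherian CRX and 144, 124 and 60 with metatherian CRX, again lowest in replicate 3 of each group. *Impg2*, a proteoglycan of the matrix around photoreceptors, had 206, 294 and 145 counts in control, 278, 307 and 230 with eutherian CRX and 116, 163 and 232 with metatherian CRX. All groups overlapped in *Rdh12* and *Impg2*. *Rbp3*, which carries retinoids between cells, and *Impg1* had 2 counts each in all 9 libraries together.

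The motif was set beside these values. Of the 16 tested members with a RefSeq promoter other than *Crx*, 8 held TAATCC and 8 did not. The median log2 fold change was 0.11 with the motif and 0.12 without it for eutherian CRX, 0.085 and 0.032 for metatherian CRX, and -0.030 and 0.066 between the orthologues. A match says only that these letters are in the window, and no binding was measured.

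Other genes of photoreceptors, from lists that hold none of the 46 members except *Gngt1*, gave 0 calls by edgeR in each list and comparison. The counts that follow stand beside 9.65% of all genes with an unadjusted p under 0.05 for eutherian CRX, 20.4% for metatherian CRX and 11.7% between the orthologues, in either direction, and beside 3.46%, 9.56% and 2.62% called by DESeq2. Of 18 further genes of phototransduction and the visual cycle, 10 were tested, and 2 were higher with eutherian and 2 with metatherian CRX at an unadjusted p under 0.05, with medians of 0.18 and 0.23 on the log2 scale, and 1 was lower between the orthologues. DESeq2 called *Rdh10*, a retinol dehydrogenase of many tissues, and *Rgs9bp*, an anchor of the transducin-inactivating complex, higher with eutherian CRX. *Rgs9bp* had 44, 57 and 108 counts in control, 166, 109 and 164 with eutherian CRX and 103, 109 and 123 with metatherian CRX, and its log2 fold change for eutherian CRX was 1.05 (adjusted p = 0.23 from edgeR). The highest levels in this list were those of *Gnb1*, at a mean of 184 FPKM, and *Pde6d*, at 23.8 FPKM, both used outside the eye. Of 16 outer segment and connecting cilium genes, 15 were in the table and 11 were tested. At an unadjusted p under 0.05, 1 was higher with eutherian CRX, 4 with metatherian CRX and 2 between the orthologues, and 0 were lower. The medians were 0.13, 0.15 and 0.10. *Cdhr1*, a cadherin at the base of the outer segment, had 226, 499 and 317 counts in control, 327, 291 and 524 with eutherian CRX and 972, 1211 and 508 with metatherian CRX. On the log2 scale metatherian CRX was 1.34 above control (adjusted p = 0.095 from edgeR) and 1.21 above eutherian CRX (adjusted p = 0.29 from edgeR), and DESeq2 called both. DESeq2 also called *Prom1*, a membrane protein of disc formation and of stem cells, at 0.67 with metatherian CRX against control (adjusted p = 0.10 from edgeR).

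Of 10 synapse genes 6 were tested, with 1 lower at an unadjusted p under 0.05 with eutherian CRX, 1 higher and 2 lower with metatherian CRX and 1 lower between the orthologues, and medians of 0.079 and -0.17 against control. *Pclo*, of the active zone, had a log2 fold change of -1.24 with metatherian CRX (adjusted p = 0.11 from edgeR) and was called by DESeq2. Of 19 other retinal transcription factors 18 had a count and 8 were tested, with 1 higher with eutherian and 2 with metatherian CRX and 1 higher and 1 lower between the orthologues at an unadjusted p under 0.05, and medians of 0.21 and -0.058 against control. *Thrb*, a hormone receptor of cone development, had 295, 433 and 735 counts in control, 327, 336 and 1724 with eutherian CRX and 939, 1200 and 1410 with metatherian CRX, with a log2 fold change of 1.32 with metatherian CRX (adjusted p = 0.12 from edgeR). *Lhx2*, an eye field factor, was at -0.81 between the orthologues (adjusted p = 0.27 from edgeR). DESeq2 called both. Of 7 pineal genes 6 were in the table and 3 were tested, with medians of -0.065 and -0.41. *Adra1b*, an adrenergic receptor and the only 1 of these with an unadjusted p under 0.05, was at -0.95 with metatherian CRX (adjusted p = 0.11 from edgeR) and was called lower by DESeq2. Markers of other cells of the eye, of which those given were chosen after their values were seen, ranged from 1 count in all libraries together (*Tyr*) to well detected. Of the pigment epithelium markers, *Rpe65* and *Tyr* had at most 4 and 1 counts in a library, *Best1* 10 to 31 and *Pmel* 58 to 87, the bipolar cell gene *Grm6* at most 2, and of the glial markers *Aqp4* had at most 16, whereas *Glul* and *Slc1a3* had at least 1343 and 1234. By edgeR 0 of the 2 pigment epithelium, 2 glial, 1 bipolar cell and 4 neuron markers tested were called in any comparison, and at an unadjusted p under 0.05 there were 0, 0, 1 and 2 with metatherian CRX against control, all higher, 0, 0, 0 and 1 with eutherian CRX, and 0, 0, 1 and 1 between the orthologues, both higher with metatherian CRX. DESeq2 called *Prkca* higher with metatherian CRX in both comparisons, and *Snap25* and *Stmn2* higher against control.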

How the data were processed

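The authors mapped paired reads of 75 bases on mm10 (GRCm38) using STAR v2.4.0, and deposited the raw count that featureCounts v1.4.6 gave for each gene in each of the 9 libraries. How strand and multiply aligned reads were handled, and which annotation release was counted, is not given in the sources used here. The members and lists were chosen with earlier results of these data known.

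Counts were analysed in R 4.3.3 with edgeR 4.0.16 and limma 3.58.1. The filter filterByExpr kept 14599 genes. TMM factors, the quasi-likelihood test with condition and replicate number as terms and Benjamini-Hochberg adjustment over all genes kept gave the calls, at an adjusted p under 0.05. The replicate number was a block because the study states that samples were prepared in pairs, without saying which. All 9 libraries entered 1 fit, and standard errors were derived from the F statistic and the fold change. DESeq2 1.42.0, another scaling, other filters and thresholds, no block, 6 libraries, thinned counts and each library left out were alternatives. Halved counts and fits of every gene with a count were added after the values had been seen. FPKM was obtained here by dividing counts by the TMM-scaled library size and the exon length in the count table. Library depth was 54145701 to 94699657 counts, and intervals of ratios and limits for zeros cover counting error only.

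Named are all members, in full where the filter kept them, and of the other lists the genes called by edgeR or DESeq2 or, with none called, mainly the 2 with the highest FPKM. Further marker genes were chosen after their values were seen. Promoters came from RefSeq (GRCm38.p6), and 12 members had none in the table used. These are *Gnb3*, *Pde6g*, *Gngt2*, *Guca1b*, *Gnat1*, *Rp1*, *Cngb3*, *Pde6c*, *Kcnv2*, *Rcvrn*, *Rax* and *Pde6a*. 1 marker gene and 1 sequence comparison are not reported here.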

Additional observations from a re-analysis of the deposited data

How the results depend on the processing

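The number of photoreceptor genes called by edgeR was 1 with eutherian CRX, 0 with metatherian CRX and 0 between the orthologues. With eutherian CRX it differed from 1 without the block, in the fit of 6 libraries, with DESeq2, with an unadjusted threshold and without 1 library in 7 of 9 fits. With DESeq2 these numbers were 2, 1 and 2, and with an unadjusted threshold 3, 2 and 4. With eutherian CRX it was 0 in a fit of only the 6 libraries compared. With 1 library left out it ranged from 0 to 1 in each comparison, where the call was that of *Crx*, or of *Otx2* with metatherian CRX against control, each kept only through the group where it is high. The *Otx2* call was lost over every gene with a count (adjusted p = 0.075 from edgeR). Other scalings and no filter on low counts left the numbers called at 1, 0 and 0. So did halved counts, with 17 members tested, and a limit of 2 FPKM, with only 3 (*Crx*, *Unc119* and *Rom1*). *Crx* passed that limit only through the eutherian CRX group, so that this setting says little about the members. Members detected fell from 40 to 26 in control, from 39 to 27 with eutherian CRX and from 39 to 27 with metatherian CRX when a count was required in all 3 libraries, and to 31, 28 and 34 when more than 3 counts were required in at least 1 library. Without 1 library of the condition 36 to 38 were detected in control, 33 to 38 with eutherian CRX and 36 to 38 with metatherian CRX. Of the fold changes recomputed, those of *Unc119* and *Rom1*, near 0, changed direction. The log2 fold change of *Unc119* with metatherian CRX was 0.00014 with DESeq2 and 0.0033 without the filter, and from -0.14 to 0.16 with 1 library left out. That of *Rom1* was from -0.11 to 0.27 with eutherian CRX and from -0.031 to 0.34 with metatherian CRX with 1 library left out. For *Gngt2* the log2 fold change then lay from -1.63 to -1.02 with eutherian CRX and from -1.59 to -0.95 with metatherian CRX, that of *Guca1a* between the orthologues from -0.94 to -0.83, and that of *Pde6h* from 1.25 to 2.44. These fits differ in their samples, genes or method, and the cause of these changes was not tested.

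Without the replicate block the numbers of photoreceptor genes called were 0, 0 and 0, with 3, 1 and 3 at an unadjusted p under 0.05 (beside 974, 2024 and 977 of all 14599 genes), and 0 genes were called over all 14599 in each comparison. Deviations from the group means were correlated (r above 0.1) for 8 of 9 same-number pairs (0.042 to 0.63) and for 5 of 18 pairs with different numbers (up to 0.57), which does not show that a number marks a pair. The 25 members that the filter left out had at most 59 counts each over the 9 libraries together, in libraries of 54145701 to 94699657 counts.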
